A study of Mus musculus with 27 samples.

Results

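Glucose uptake, glycolysis and the entry of pyruvate into mitochondria were followed through 35 genes of the deposited table of 27304 genes, in heart tissue taken 7 days after myocardial infarction. The members were picked by gene symbol and all 35 were found. They comprise 11 isoforms typical of heart or skeletal muscle and 14 genes of the same steps listed as forms of other tissues. The other 10 genes have no such partner or were not classed. The list of 14 is not free of muscle forms. It holds, for example, Pkm, which also makes a form of muscle, and Ldha, which skeletal muscle also uses. Nor are all of the 11 confined to muscle, so the lists are not a strict split of muscle from other tissue. RNA came from 14 male mice deficient in apolipoprotein E (ApoE-/-, C57BL/6J), and all of them ate a western type diet for 4 weeks before the diets diverged. The chronic kidney disease (CKD) mice then received western diet with adenine, which damages the kidney, at 0.3% for 10 days and at 0.15% for 11 days, of which 4 came before and 7 after the infarction. Control mice stayed on western diet without adenine. The 27 bulk libraries were 7 from CKD infarct tissue, 6 from control infarct tissue, 8 from CKD remote myocardium and 6 from control remote myocardium, and 13 mice gave both regions. All groups share the lack of ApoE, the diet and the infarction, and no heart without an infarct was in the study. The remote library of mouse 9179 carries CKD in its title and control in its treatment label, and was counted as CKD.

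Cells take up glucose through facilitative transporters, trap it by phosphorylation and split it in the cytosol into pyruvate, which is either reduced to lactate or carried into mitochondria and oxidised by the pyruvate dehydrogenase complex. Many steps have tissue-specific isoforms. Adult cardiomyocytes take most of their energy from fatty acids, use the insulin-responsive transporter GLUT4 and muscle forms of the glycolytic enzymes, and can take up lactate as fuel. Fibroblasts and leukocytes, which fill an infarct, mostly use the widely expressed isoforms and export lactate. Pyruvate dehydrogenase kinases brake the entry of pyruvate, and in the heart they respond to fatty acid supply.

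Libraries held 14255456 to 42566498 counts, and levels are given below as CPM, counts scaled to a common library size with trimmed-mean (TMM) factors. Levels of different genes are not compared with each other, because CPM is not divided by length. The level of 12 cardiomyocyte genes (mean log2 CPM) was 10.85, 11.77 and 12.73 in CKD infarct libraries (lowest, median and highest), 7.85, 10.63 and 10.84 in control infarct, 12.34, 12.62 and 12.74 in CKD remote and 11.55, 12.34 and 12.61 in control remote libraries, and none of the 12 was at 0 in any library. Some libraries stood apart from their group. CKD mouse 9179 gave an infarct library with a cardiomyocyte level of 12.73 and 80.7 CPM of Col1a1, a collagen gene, and that of CKD mouse 9172 had 12.36 and 1651 CPM, whereas control infarct libraries had at least 8223 CPM of Col1a1. The remote library of control mouse 9180 had a cardiomyocyte level of 11.55 and 3864 CPM of Col1a1, and the infarct library of control mouse 9171 had the lowest cardiomyocyte level of all, 7.85. Skeletal muscle markers summed to 4.51 to 29.7 CPM in every library, with Myh2 and Myh4, myosins of fast skeletal muscle, at 0.332 CPM or less. Apoe, the deleted gene, still gave 9.85 to 34 CPM, and whether its reads fall in the deleted part was not examined.

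The first comparison set infarct tissue against remote myocardium. Most muscle-type isoforms were lower in the infarct, whereas several of their counterparts from other tissues were higher. In CKD mice 11 of 35 members fell and 8 rose, where 20.2% and 24.7% of all 14770 genes tested did (45.0% in either direction). In control mice 26 fell and 8 rose, against 33.2% and 30.7% of all genes (63.9% in either direction). One of the genes that rose under each diet, Aldoc, passed the count filter through its infarct libraries, and without it 7 rose in each. By list, 6 of 11 muscle-type genes fell in CKD mice (10 of 11 with the mouse as a block) and all 11 in control mice (11 with the block), with a median log2 fold change of -0.82 in CKD and -2.0 in control mice beside -0.01 over all genes in each diet. Of the 14 other-tissue genes 8 rose in CKD mice, with a median of 0.46, and 8 rose and 5 fell in control mice, with a median of 0.43. Of the remaining members 5 of 10 fell in CKD (4 with the block) and all 10 in control mice. Calls are from edgeR's quasi-likelihood test at an adjusted p below 0.05, with all 4 groups in one fit. In CKD hearts infarct and remote values overlapped for 34 of 35 members, and in control hearts they were apart for 26 of 35, where 2.23% of all genes were apart in CKD and 33.5% in control hearts.

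**Figure D1:**
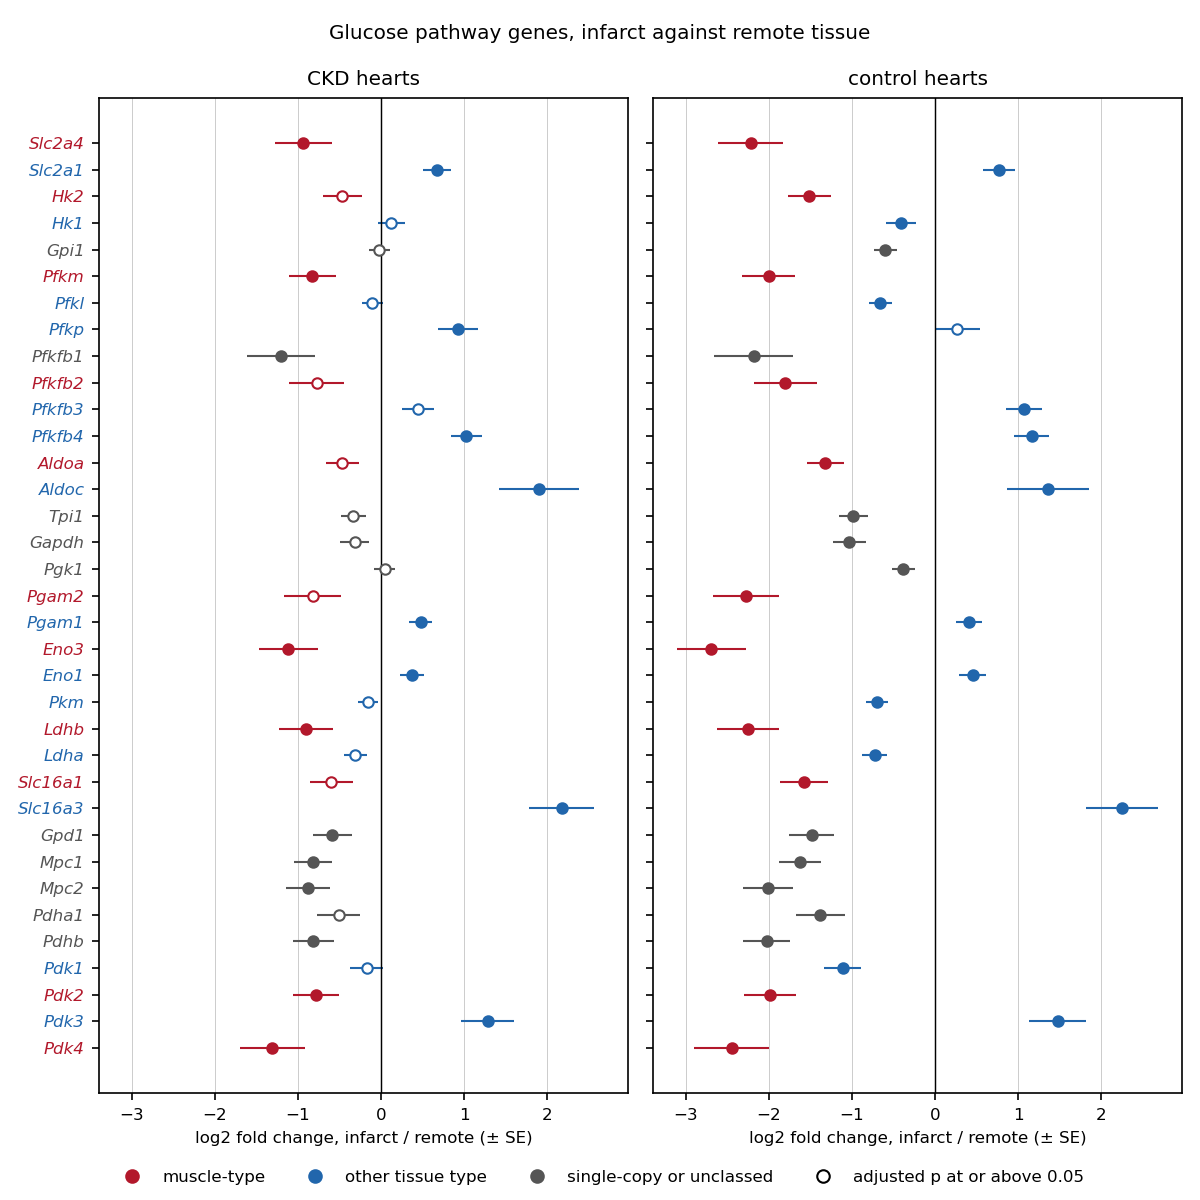
Log2 fold change of infarct over remote tissue for the 35 genes in CKD hearts (left, 7 infarct and 8 remote libraries) and control hearts (right, 6 and 6), with bars of 1 standard error; filled points passed the adjusted threshold. Muscle-type genes (red) lie below 0 in both panels and further from 0 in control hearts, where their median is -2.0, while Slc2a1, Pfkfb4, Pgam1, Eno1, Pdk3 and Slc16a3 (blue) lie above 0 in both.

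Markers of several cell types moved with the region. Of 12 cardiomyocyte markers 1 fell in CKD infarct tissue, with a median log2 fold change of -0.71 over the list, and all 12 fell in control infarct tissue, with a median of -2.05. Their summed level ran from 32671 to 123243 CPM in CKD infarct, 5087 to 32898 CPM in control infarct, 91380 to 123868 CPM in CKD remote and 52682 to 113874 CPM in control remote libraries. All 8 fibroblast and all 8 macrophage markers rose in the infarct under both diets. Fibroblast markers summed to 950.3 to 33178 CPM in CKD infarct, 26813 to 53965 CPM in control infarct, 1075 to 1962 CPM in CKD remote and 1223 to 13389 CPM in control remote libraries. Macrophage markers summed to 552.9 to 7126 CPM in CKD infarct, 2064 to 4794 CPM in control infarct, 458.2 to 903.5 CPM in CKD remote and 432.7 to 1640.4 CPM in control remote libraries. Of 5 neutrophil markers 1 rose in CKD and 5 in control infarct tissue, and 5 of 6 endothelial markers fell under each diet. Of 4 atrial markers tested 1 rose in CKD and 3 fell in control infarct tissue. The atrial marker Myl7 ran from 0.13 to 363 CPM in CKD remote and 0.52 to 256 CPM in control remote libraries. Among infarct libraries it was 216 CPM in CKD mouse 9179 and 2.67 CPM or less in all others. In bulk tissue fewer cells of a type and less RNA per cell cannot be told apart, and the part of these markers in the region results was not tested.

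Glucose transporters moved apart. Slc2a4, which encodes GLUT4, the insulin-responsive transporter of muscle and fat, had 138, 207 and 449.9 CPM in CKD infarct and 14.6, 95.4 and 135 CPM in control infarct libraries, against 428, 479.8 and 553 CPM in CKD remote and 179, 427 and 485 CPM in control remote libraries (lowest, median and highest here and below). Every control infarct library lay below every control remote one, while in CKD mice the infarct libraries of 9179 and 9172 reached the remote range or came near it. Its log2 fold change was -0.93 ± 0.34 (SE, adjusted p = 0.028) in CKD and -2.22 ± 0.39 (adjusted p = 4.43e-05) in control mice. Slc2a1, which encodes GLUT1, the basal transporter of most cells, had 19.9, 37.2 and 57.0 CPM in CKD infarct and 32.7, 33.6 and 46.8 CPM in control infarct libraries, against 18.2, 23 and 28.7 CPM in CKD remote and 16.7, 19.8 and 30.3 CPM in control remote libraries. It was higher in the infarct, at 0.68 ± 0.17 (adjusted p = 0.00305) in CKD and 0.77 ± 0.19 (adjusted p = 0.00108) in control mice, and in control mice the regions did not overlap.

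Hexokinases trap glucose as glucose 6-phosphate. Hk2, the insulin-regulated form of muscle, had 188, 238 and 480.0 CPM in CKD infarct and 54.7, 145 and 186 CPM in control infarct libraries, against 324, 433 and 497 CPM in CKD remote and 239, 372 and 464 CPM in control remote libraries. In CKD mice its value of -0.46 ± 0.23 did not pass (adjusted p = 0.0986; log2 fold change -0.60 and adjusted p = 0.0432 with the mouse as a block), and it fell in control mice (-1.51 ± 0.26, adjusted p = 3.96e-05). Hk1, the form most tissues express, had 179, 226 and 429 CPM in CKD infarct and 115, 158 and 211 CPM in control infarct libraries, against 203, 216 and 292 CPM in CKD remote and 171, 209 and 294 CPM in control remote libraries, and the regions overlapped in both diets. Its log2 fold change was 0.13 ± 0.16 (adjusted p = 0.532) in CKD and -0.41 ± 0.18 (adjusted p = 0.0491) in control mice. The control call was lost with other size factors (adjusted p = 0.069), without the low-count filter (0.0696), with a filter of 1 CPM (0.0517), with DESeq2 (0.0595) and with limma-voom (0.0781), and held in 6 of 27 fits that left out 1 library. Gpi1, which isomerises glucose 6-phosphate, stood at -0.02 ± 0.12 in CKD mice (adjusted p = 0.917) and fell in control mice (-0.60 ± 0.14, adjusted p = 0.00066). Gpi1 had 815, 974 and 1201 CPM in CKD infarct and 376, 609 and 778 CPM in control infarct libraries, against 892, 999 and 1127 CPM in CKD remote and 847, 901 and 964 CPM in control remote libraries, and the regions overlapped in CKD and not in control mice.

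The phosphofructokinase step commits sugar to glycolysis. Pfkm, the muscle subunit, had 387, 617 and 1089 CPM in CKD infarct and 87.4, 300.1 and 404 CPM in control infarct libraries, against 946, 1149 and 1320.4 CPM in CKD remote and 441, 1218 and 1417 CPM in control remote libraries. It fell in both diets, with log2 fold changes of -0.82 ± 0.28 (adjusted p = 0.0201) in CKD and -2.0 ± 0.32 (adjusted p = 2.05e-05) in control mice. Pfkl, the liver subunit, stood at -0.10 ± 0.12 in CKD mice (adjusted p = 0.502) and fell in control mice (-0.66 ± 0.14, adjusted p = 0.000264). Pfkl had 135, 180.0 and 254 CPM in CKD infarct and 91.1, 135 and 156 CPM in control infarct libraries, against 158, 193 and 219 CPM in CKD remote and 172, 203 and 239.5 CPM in control remote libraries, and the regions overlapped in CKD and not in control mice. Pfkp, the platelet subunit, rose in CKD mice (0.93 ± 0.24, adjusted p = 0.00417) and was the only member not called in control mice (0.27 ± 0.27, adjusted p = 0.389). Pfkp had 65.1, 136 and 301 CPM in CKD infarct and 74.8, 108 and 170.1 CPM in control infarct libraries, against 54.5, 80.3 and 91.7 CPM in CKD remote and 63.2, 81.7 and 167 CPM in control remote libraries, and the regions overlapped in both diets. Its control remote values reached 167.0 CPM in mouse 9180, against 96.8 CPM in the next library. Without that library and the infarct libraries of CKD mice 9172 and 9179 the control value of Pfkp was 0.51 (adjusted p = 0.0398).

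The bifunctional Pfkfb enzymes make and remove fructose 2,6-bisphosphate, which activates phosphofructokinase. Pfkfb2, the heart form, had 10.4, 14.1 and 42.5 CPM in CKD infarct and 3.80, 11.0 and 17.2 CPM in control infarct libraries, against 17.5, 30.2 and 51.1 CPM in CKD remote and 19.6, 28.6 and 62.8 CPM in control remote libraries. Its -0.77 ± 0.33 in CKD mice did not pass (adjusted p = 0.0562; -0.91 and adjusted p = 0.0128 with the mouse as a block), and it fell in control mice (-1.80 ± 0.37, adjusted p = 0.000214). Pfkfb1, known from liver and skeletal muscle and expressed here at 17.2 CPM or less, fell in both diets (-1.21 ± 0.41, adjusted p = 0.02 in CKD and -2.18 ± 0.47, adjusted p = 0.00032 in control mice). Pfkfb1 had 1.07, 2.22 and 15.0 CPM in CKD infarct and 1.17, 1.33 and 2.33 CPM in control infarct libraries, against 6.86, 9.29 and 17.2 CPM in CKD remote and 3.51, 6.76 and 13 CPM in control remote libraries, and the regions overlapped in CKD and not in control mice. Pfkfb3 and Pfkfb4, forms that hypoxia can induce, went the other way. Pfkfb3 had 13.4, 18.5 and 29.4 CPM in CKD infarct and 20.7, 29.2 and 34.7 CPM in control infarct libraries, against 10.8, 12.7 and 26.9 CPM in CKD remote and 11.1, 13.4 and 16.2 CPM in control remote libraries. It stood at 0.45 ± 0.19 in CKD mice (adjusted p = 0.0627) and rose in control mice (1.07 ± 0.22, adjusted p = 0.000181). Pfkfb4 rose in both diets, with log2 fold changes of 1.03 ± 0.18 (adjusted p = 0.00019) in CKD and 1.16 ± 0.21 (adjusted p = 4.77e-05) in control mice, and was higher in the infarct library of 7 of 7 CKD and 6 of 6 control mice. Pfkfb4 had 6.65, 12.7 and 21.5 CPM in CKD infarct and 15.3, 16.9 and 18.9 CPM in control infarct libraries, against 4.37, 6.30 and 7.84 CPM in CKD remote and 6.35, 6.85 and 11.5 CPM in control remote libraries, and the regions overlapped in CKD and not in control mice.

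Lower glycolysis starts with aldolase, which splits the sugar. Aldoa, the aldolase of muscle, had 2124, 2781 and 4214 CPM in CKD infarct and 627, 1737 and 2018 CPM in control infarct libraries, against 3847, 4128 and 4756 CPM in CKD remote and 3119, 3875 and 4245 CPM in control remote libraries. It stood at -0.47 ± 0.20 in CKD mice (adjusted p = 0.0554) and fell in control mice (-1.32 ± 0.22, adjusted p = 3.13e-05). Aldoc, the brain form, was barely detected, at 1 to 36 counts in CKD infarct and 8 to 24 in control infarct libraries, against 0 to 5 in CKD remote and 1 to 11 in control remote libraries. It passed the count filter of this fit through its infarct libraries and not that of the remote fit, so its log2 fold changes are given as a description (1.90 ± 0.49, adjusted p = 0.00357 in CKD and 1.36 ± 0.50, adjusted p = 0.019 in control mice). Tpi1, Gapdh and Pgk1, the steps from triose phosphate isomerase to phosphoglycerate kinase that have no muscle form, did not change detectably in CKD mice and each fell in control mice. Gapdh, often used as a reference gene, had 3358, 3993 and 5212 CPM in CKD infarct and 1033, 2220.0 and 3026 CPM in control infarct libraries, against 4552, 5373 and 5755 CPM in CKD remote and 3669, 4359.7 and 4627 CPM in control remote libraries. The CKD regions overlapped (-0.32 ± 0.17, adjusted p = 0.131), and every control infarct library lay below every control remote one (-1.03 ± 0.19, adjusted p = 8.4e-05). Tpi1 stood at -0.33 ± 0.15 (adjusted p = 0.0761) in CKD and -0.98 ± 0.17 (adjusted p = 4.24e-05) in control mice. Tpi1 had 594, 679 and 1173 CPM in CKD infarct and 244, 474 and 525 CPM in control infarct libraries, against 939, 1001 and 1073 CPM in CKD remote and 712, 855 and 968 CPM in control remote libraries, and the regions overlapped in CKD and not in control mice. Pgk1 stood at 0.05 ± 0.12 (adjusted p = 0.778) in CKD and -0.38 ± 0.14 (adjusted p = 0.0184) in control mice. Pgk1 had 405, 457 and 708 CPM in CKD infarct and 217, 329 and 443 CPM in control infarct libraries, against 429, 483 and 506 CPM in CKD remote and 336, 441 and 477 CPM in control remote libraries, and the regions overlapped in both diets. Several of these genes have processed copies of near-identical sequence in the mouse genome, Gapdh among them, so the split of reads with such copies is uncertain.

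Phosphoglycerate mutase and enolase follow, each with a muscle form and a form of other tissues. Pgam2, the mutase of muscle, had 329, 452 and 1209 CPM in CKD infarct and 27.1, 237 and 276 CPM in control infarct libraries, against 904, 969.8 and 1409 CPM in CKD remote and 652, 870.1 and 1150.2 CPM in control remote libraries. In CKD mice the regions overlapped and the value of -0.82 ± 0.34 did not pass (adjusted p = 0.0538; -0.95 and adjusted p = 0.0473 with the mouse as a block), whereas in control mice the regions were apart (-2.27 ± 0.40, adjusted p = 4.43e-05). Pgam1, the form of brain and most other tissues, had 107, 168 and 231 CPM in CKD infarct and 153, 165 and 194 CPM in control infarct libraries, against 101, 117 and 139.9 CPM in CKD remote and 97.3, 123 and 163 CPM in control remote libraries. It rose in both diets, with log2 fold changes of 0.48 ± 0.14 (adjusted p = 0.00882) in CKD and 0.40 ± 0.16 (adjusted p = 0.0268) in control mice. Eno3, the enolase of muscle, had 470.4, 671 and 1907 CPM in CKD infarct and 41.6, 295 and 411 CPM in control infarct libraries, against 1687, 1968 and 2356 CPM in CKD remote and 754, 1744 and 2075 CPM in control remote libraries. It fell in CKD mice (-1.11 ± 0.35, adjusted p = 0.014), and its fall in control mice (-2.69 ± 0.41, adjusted p = 1.65e-05) was the largest of the 35 members. Eno1, the enolase of most tissues, rose as well, at 0.37 ± 0.14 (adjusted p = 0.0374) in CKD and 0.45 ± 0.16 (adjusted p = 0.0169) in control mice. The CKD call was lost without the low-count filter (adjusted p = 0.0511) and held in 19 of 27 fits that left out 1 library. Eno1 had 252, 373 and 507 CPM in CKD infarct and 304, 388 and 457 CPM in control infarct libraries, against 221, 298 and 319 CPM in CKD remote and 232, 260.4 and 411 CPM in control remote libraries, and the regions overlapped in both diets. Pkm, pyruvate kinase, whose M1 form of muscle and M2 form of other cells are spliced from one gene and are not separated by gene counts, stood at -0.15 ± 0.12 in CKD mice (adjusted p = 0.272) and fell in control mice (-0.69 ± 0.13, adjusted p = 7.75e-05). Pkm had 1399, 1474 and 2034 CPM in CKD infarct and 749, 1085 and 1295 CPM in control infarct libraries, against 1679.5, 1783 and 1944 CPM in CKD remote and 1451, 1672 and 1916 CPM in control remote libraries, and the regions overlapped in CKD and not in control mice.

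Upstream sequence is shown for 2 isoform pairs whose ratio was lower in infarct than in remote tissue, the mutases and the monocarboxylate transporters, since the members were counted by gene and the isoforms are separate genes with separate promoters. The 250 bases before the RefSeq start (assembly GRCm38.p6) are printed in the direction of transcription, with capitals marking ACGTG and GCGTG on either strand (a match on the other strand reads CACGT or CACGC, and CACGTG holds ACGTG on both strands). These letters are the core to which hypoxia-inducible factors bind. Pgam2 is at chr11:5803797-5804046 on the minus strand, Pgam1 at chr19:41911621-41911870, Slc16a1 at chr3:104638414-104638663 and Slc16a3 at chr11:120948817-120949066, all on the plus strand. GENCODE places a start on the same strand 63, 52, 4 and 0 bases from these RefSeq starts. The last 40 bases of the full RefSeq window, past the start, lie in a GENCODE transcript of the gene for 41 of 53 windows of members and for 2 of the 4 shown.
Pgam2: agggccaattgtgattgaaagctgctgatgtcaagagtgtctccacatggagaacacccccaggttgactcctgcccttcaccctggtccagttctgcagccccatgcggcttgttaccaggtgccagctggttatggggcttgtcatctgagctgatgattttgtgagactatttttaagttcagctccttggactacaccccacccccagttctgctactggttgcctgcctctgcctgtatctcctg
Pgam1: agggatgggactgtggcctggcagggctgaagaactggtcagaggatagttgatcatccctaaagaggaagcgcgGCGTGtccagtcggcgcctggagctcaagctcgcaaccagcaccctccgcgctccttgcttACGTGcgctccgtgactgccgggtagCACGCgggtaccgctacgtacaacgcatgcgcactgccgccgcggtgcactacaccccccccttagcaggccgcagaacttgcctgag
Slc16a1: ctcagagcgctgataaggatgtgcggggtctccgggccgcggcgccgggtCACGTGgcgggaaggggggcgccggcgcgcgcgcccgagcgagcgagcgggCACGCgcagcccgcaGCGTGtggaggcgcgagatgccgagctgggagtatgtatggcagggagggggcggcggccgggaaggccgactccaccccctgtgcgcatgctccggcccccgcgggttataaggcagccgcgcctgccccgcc
Slc16a3: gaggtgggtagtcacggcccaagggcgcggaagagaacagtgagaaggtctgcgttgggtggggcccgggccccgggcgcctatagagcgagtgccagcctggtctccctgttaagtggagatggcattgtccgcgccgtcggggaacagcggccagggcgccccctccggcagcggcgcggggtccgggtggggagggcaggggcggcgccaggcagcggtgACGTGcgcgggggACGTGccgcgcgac
The Pgam2 window holds no match, that of Pgam1 holds 1 ACGTG and 2 GCGTG, that of Slc16a1 holds 2 and 2, and that of Slc16a3 holds 2 ACGTG and no GCGTG. Over the same 250 bases of all 32851 RefSeq windows, 38.6% hold at least 1 of them. The members had 53 windows for 33 of 35 genes, and a match was found in 14 of 18 windows of muscle-type genes, 19 of 22 windows of other-tissue genes and 7 of 13 windows of the remaining genes. By gene, at least 1 window held a match for 9 of 10 muscle-type, 14 of 14 other-tissue and 7 of 9 remaining genes. Pgam2 is thus the exception among muscle-type genes. The 38.6% counts windows and not genes. A match is a run of letters and not a site known to be bound.

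**Figure D2:**
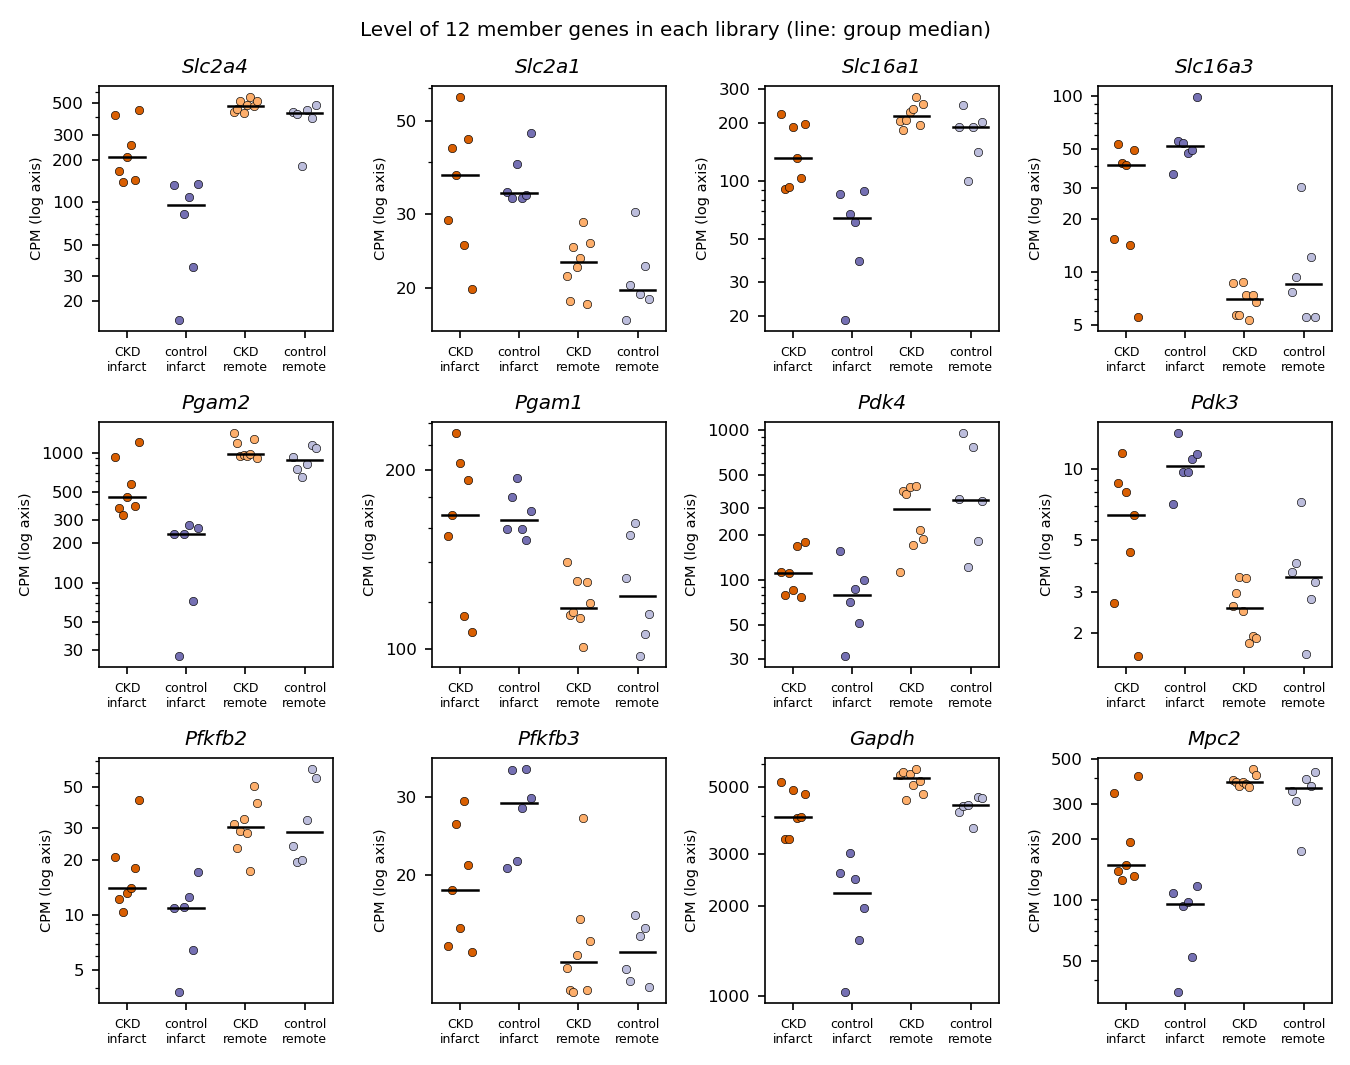
CPM on log axes for 12 of the genes in each of the 27 libraries, with a line at the group median. Slc2a4, Slc16a1, Pgam2 and Mpc2 are lowest in control infarct libraries, whose median for Slc2a4 is 95.4 CPM, and Slc2a1, Slc16a3 and Pdk3 are lower in remote than in infarct medians; some CKD infarct points lie in the remote range.

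Lactate dehydrogenase interconverts pyruvate and lactate. Ldhb, the heart-type subunit, had 583, 802 and 2073 CPM in CKD infarct and 69.0, 411 and 480.3 CPM in control infarct libraries, against 1704, 2008 and 2171 CPM in CKD remote and 750.5, 1715 and 2066 CPM in control remote libraries. It fell in both diets, with log2 fold changes of -0.90 ± 0.33 (adjusted p = 0.0282) in CKD and -2.25 ± 0.37 (adjusted p = 2.87e-05) in control mice. Ldha, the subunit of skeletal muscle and of most lactate-producing cells, was listed with the other-tissue forms, stood at -0.31 ± 0.13 in CKD mice (adjusted p = 0.062) and fell in control mice (-0.72 ± 0.15, adjusted p = 0.000199). Ldha had 661, 798 and 1132 CPM in CKD infarct and 386, 568 and 708 CPM in control infarct libraries, against 866, 1075 and 1224 CPM in CKD remote and 787, 911 and 1025 CPM in control remote libraries, and the regions overlapped in CKD and not in control mice. Slc16a1, which encodes the lactate transporter MCT1 of the cardiomyocyte membrane, had 91.0, 132 and 223 CPM in CKD infarct and 19, 64.1 and 88.4 CPM in control infarct libraries, against 185, 218 and 272 CPM in CKD remote and 99.8, 189 and 249 CPM in control remote libraries. Its CKD value of -0.60 ± 0.25 did not pass (adjusted p = 0.0573; -0.71 and adjusted p = 0.0487 with the mouse as a block), and it fell in control mice (-1.58 ± 0.29, adjusted p = 6.53e-05). Slc16a3, which encodes MCT4, the lactate exporter of strongly glycolytic cells, had 5.58, 40.3 and 52.9 CPM in CKD infarct and 36.2, 51.7 and 98.1 CPM in control infarct libraries, against 5.32, 7.06 and 8.76 CPM in CKD remote and 5.52, 8.51 and 30.3 CPM in control remote libraries. It had the largest rise of the members in both diets, 2.17 ± 0.39 (adjusted p = 0.000184) in CKD and 2.25 ± 0.43 (adjusted p = 0.000101) in control mice. The infarct library of CKD mouse 9179, at 5.58 CPM, lay inside its remote range, and the remote library of control mouse 9180, at 30.3 CPM, lay above all other remote libraries.

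Carriers and enzymes of pyruvate entry were lower in the infarct. Mpc1 and Mpc2 form the mitochondrial pyruvate carrier. Mpc1 had 62.2, 89.0 and 146 CPM in CKD infarct and 17.7, 52.1 and 61.8 CPM in control infarct libraries, against 151, 171 and 191 CPM in CKD remote and 84.1, 146 and 170.3 CPM in control remote libraries, and it was the one member whose CKD infarct and CKD remote libraries did not overlap. Its log2 fold change was -0.82 ± 0.23 (adjusted p = 0.0062) in CKD and -1.63 ± 0.26 (adjusted p = 1.96e-05) in control mice. Mpc2 fell likewise, at -0.88 ± 0.26 (adjusted p = 0.01) in CKD and -2.01 ± 0.30 (adjusted p = 1.49e-05) in control mice. Mpc2 had 125, 148 and 412 CPM in CKD infarct and 34.9, 95.6 and 117 CPM in control infarct libraries, against 362, 384 and 445 CPM in CKD remote and 175, 357 and 431 CPM in control remote libraries, and the regions overlapped in CKD and not in control mice. Pdhb, the beta subunit of pyruvate dehydrogenase, had 244, 429 and 724 CPM in CKD infarct and 63.6, 199 and 245 CPM in control infarct libraries, against 684, 775 and 829 CPM in CKD remote and 387, 733 and 853 CPM in control remote libraries. It fell in both diets, with log2 fold changes of -0.81 ± 0.24 (adjusted p = 0.0103) in CKD and -2.03 ± 0.28 (adjusted p = 9.98e-06) in control mice. The alpha subunit gene Pdha1 stood at -0.51 ± 0.26 in CKD mice (adjusted p = 0.106) and fell in control mice (-1.38 ± 0.29, adjusted p = 0.000262). Pdha1 had 151, 248 and 435 CPM in CKD infarct and 73.3, 143 and 205 CPM in control infarct libraries, against 265, 379.7 and 511 CPM in CKD remote and 160.3, 382 and 628 CPM in control remote libraries, and the regions overlapped in both diets. Gpd1, which passes glycolytic electrons to glycerol 3-phosphate, fell in both diets (-0.58 ± 0.24, adjusted p = 0.0476 in CKD and -1.49 ± 0.27, adjusted p = 6.04e-05 in control mice), and its CKD call was lost with the mouse as a block (-0.67, adjusted p = 0.0641). Gpd1 had 26.6, 49.0 and 66.1 CPM in CKD infarct and 6.10, 20.1 and 29.7 CPM in control infarct libraries, against 56.7, 64.7 and 93.4 CPM in CKD remote and 36.1, 52.4 and 80.0 CPM in control remote libraries, and the regions overlapped in CKD and not in control mice.

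The 4 kinases that switch off pyruvate dehydrogenase did not move together. Pdk4, the form that fasting and fatty acids induce, had 77.3, 112 and 179 CPM in CKD infarct and 31.2, 79.4 and 156 CPM in control infarct libraries, against 113, 296 and 426 CPM in CKD remote and 122, 343 and 953 CPM in control remote libraries. Its remote values were widely spread, and it fell at -1.31 ± 0.39 (adjusted p = 0.0106) in CKD and -2.44 ± 0.45 (adjusted p = 7.05e-05) in control mice. Pdk2, the other abundant heart form, fell at -0.78 ± 0.28 (adjusted p = 0.0247) in CKD and -1.98 ± 0.32 (adjusted p = 2e-05) in control mice. Pdk2 had 169, 233 and 497 CPM in CKD infarct and 38, 127 and 158 CPM in control infarct libraries, against 416, 468 and 604 CPM in CKD remote and 192, 477 and 538 CPM in control remote libraries, and the regions overlapped in CKD and not in control mice. Pdk3 had 1.60, 6.38 and 11.8 CPM in CKD infarct and 7.16, 10.4 and 14.3 CPM in control infarct libraries, against 1.82, 2.56 and 3.47 CPM in CKD remote and 1.62, 3.48 and 7.28 CPM in control remote libraries. It rose in both diets, with log2 fold changes of 1.28 ± 0.31 (adjusted p = 0.00264) in CKD and 1.47 ± 0.35 (adjusted p = 0.000713) in control mice. Pdk1, which hypoxia can induce, stood at -0.17 ± 0.20 in CKD mice (adjusted p = 0.49) and fell in control mice (-1.11 ± 0.22, adjusted p = 0.000159). Pdk1 had 77.8, 89.3 and 154 CPM in CKD infarct and 29.4, 70.0 and 75.9 CPM in control infarct libraries, against 87.9, 112 and 161 CPM in CKD remote and 89.4, 135 and 164 CPM in control remote libraries, and the regions overlapped in CKD and not in control mice.

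Within mice the muscle-type genes mostly moved one way. In CKD mice the infarct library was below the remote library of the same heart in 7 of 7 mice for Slc2a4, Hk2, Pfkm, Ldhb and Pdk2 and in 6 of 7 for the other 6 muscle-type genes, with mouse 9179 or 9172 as the exception. In control mice it was below in 6 of 6 mice for all 11 muscle-type genes. Other members were mixed in CKD mice, where the infarct library was higher in 4 of 7 mice for Hk1, 3 of 7 for Pgk1, 2 of 7 for Pfkl and Pdk1 and 5 of 7 for Slc2a1. In control mice it was higher in 1 of 6 for Hk1, 0 of 6 for Pgk1, Pfkl and Pdk1 and 6 of 6 for Slc2a1.

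Several region calls hung on single libraries. In CKD mice the calls of Slc2a4 and Ldhb held in 23 of 27 fits that left out 1 library, that of Pdk2 in 24, that of Pfkm in 26 and that of Gpd1 in 9. Those of Slc2a4 and Ldhb were lost without the infarct library of CKD mouse 9174, 9175, 9176 or 9178, that of Pdk2 without 9174, 9175 or 9178, and that of Pfkm without 9175. In control mice the call of Pgam1 held in 23 and that of Pgk1 in 24 of 27 fits. Pgam1 was lost without the remote library of control mouse 9182, 9183 or 9184 or the infarct library of 9180, and Pgk1 without the remote library of 9171 or 9184 or the infarct library of 9171. With CKD mice 9172 and 9179 left out of the infarct group and control mouse 9180 out of the remote group, 27 members were called in CKD mice (9 higher, 18 lower) and all 35 in control mice (9 higher, 26 lower), where 61.7% and 68.2% of all 14888 genes tested were called in CKD and in control mice. The CKD values of Slc2a4, Eno3 and Mpc2 were then -1.41, -1.66 and -1.41, and that of Pfkfb1 was -2.15.

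CKD was next compared with control within infarct tissue, the comparison of how kidney disease bears on the healing region. Muscle-type isoforms, mitochondrial pyruvate carrier and pyruvate dehydrogenase genes were higher in CKD infarct tissue, and the isoforms of other tissues were mostly not different. Of 35 members 21 rose and none fell, beside 13.1% and 7.14% of 14358 genes tested (20.3% in either direction). They were 9 of 11 muscle-type genes, 9 of 10 remaining genes and 3 of 14 other-tissue genes (Ldha, Pkm and Pdk1), with median log2 fold changes of 1.26, 1.01 and -0.04 beside -0.02 over all genes. The level of the cardiomyocyte markers moved with these genes, as 7 of 12 rose with a median of 1.5, and fibroblast and macrophage markers had medians of -1.04 and -0.37 with 0 of 8 called in each.

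Eno3 had the largest difference, 1.81 ± 0.50 (adjusted p = 0.0345), and all 7 CKD values, from 470.4 CPM upward, lay above the highest control value of 411 CPM. Pgam2 (1.66 ± 0.50, adjusted p = 0.0376), Ldhb (1.61 ± 0.45, adjusted p = 0.035) and Slc2a4 (1.53 ± 0.47, adjusted p = 0.0402) followed, again with no overlap between diets. Gapdh ran over 3358 to 5212 CPM in CKD and 1033 to 3026 CPM in control infarct libraries (0.97 ± 0.25, adjusted p = 0.0345). Diets were apart in this way for 15 of 35 members, 8 of them muscle-type, where 6.48% of all genes were. The muscle-type genes also called were Hk2 (1.2 ± 0.32), Pfkm (1.19 ± 0.36), Aldoa (0.99 ± 0.29), Pdk2 (1.34 ± 0.36) and Slc16a1 (1.26 ± 0.34), with adjusted p from 0.0345 to 0.0375. Of the remaining genes that were called, Pdhb (1.31 ± 0.33), Mpc2 (1.30 ± 0.35), Gpd1 (1.18 ± 0.31) and Mpc1 (1.06 ± 0.30) led, followed by Pdha1, Tpi1, Gpi1 and Pgk1 at 0.91, 0.86, 0.68 and 0.54. Pfkfb1, at 1.42 ± 0.53, did not pass (adjusted p = 0.0699) and was called by DESeq2 (1.46, adjusted p = 0.0238) and in the fit of all 27 libraries (1.47, adjusted p = 0.0164). Hk1 likewise passed with DESeq2 (0.60, adjusted p = 0.0271) and in that fit (0.62, adjusted p = 0.00893). Ldha (0.58 ± 0.18), Pkm (0.60 ± 0.17) and Pdk1 (0.76 ± 0.24) were smaller. Slc2a1 (-0.02 ± 0.22, adjusted p = 0.947), Pgam1 (-0.05 ± 0.18, adjusted p = 0.852) and Eno1 (-0.07 ± 0.19, adjusted p = 0.788) stood near 0. Pfkfb3 at -0.57 ± 0.21 (adjusted p = 0.0631), Slc16a3 at -0.88 ± 0.44 (adjusted p = 0.145) and Pdk3 at -0.79 ± 0.36 (adjusted p = 0.122) did not pass.

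These infarct calls rest on few libraries. Their adjusted p ran from 0.0345 to 0.0477, and no member was called once the infarct libraries of CKD mice 9172 and 9179 were left out, when Eno3, Pgam2 and Slc2a4 stood at 1.27, 1.14 and 1.05 (adjusted p = 0.111, 0.141 and 0.157). In that fit 0 of 14515 genes were called, so the loss was not particular to the members. With 1 library left out at a time, no member was called without CKD mouse 9172 or 9177 or without control mouse 9171, 9182 or 9183, and 10 were called without CKD mouse 9179 and 12 without CKD mouse 9176. The shares of all genes called in these single-library fits are not given, so their counts are not read as particular to the members. With the cardiomyocyte level as a covariate no member was called either, and 0 of 14358 genes were called at all, with 488 at an unadjusted p below 0.05. In infarct tissue that level was 10.85 or more in CKD and 10.84 or less in control libraries. The fit can thus hardly tell diet from that level, and the loss of calls decides nothing about either.

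**Figure D3:**
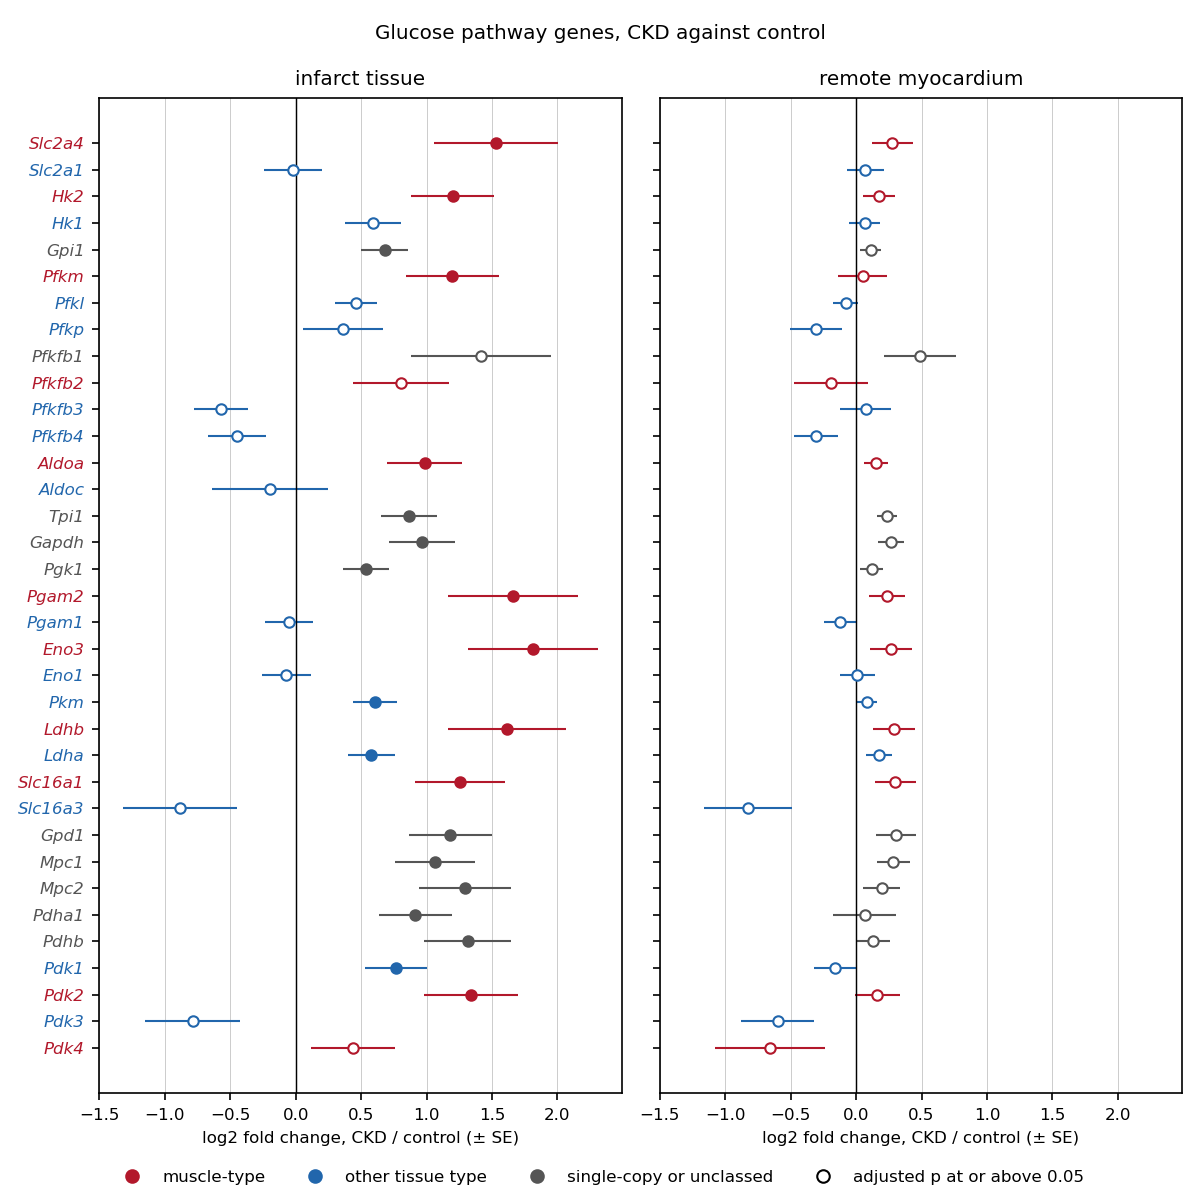
Log2 fold change of CKD over control for the 35 genes in infarct tissue (left, 7 and 6 libraries) and remote myocardium (right, 8 and 6), with bars of 1 standard error; filled points passed the adjusted threshold. In infarct tissue 21 points are filled and lie above 0, and in remote myocardium none is filled, with values between -0.83 and 0.49; Aldoc was not tested there.

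In remote myocardium the comparison of CKD with control asked whether the surviving muscle differs. No member was called among 34 tested, where 3 of 13902 genes (0.0216%) were called and 1626 genes had an unadjusted p below 0.05, and limma-voom called no member. DESeq2 called 1 member, Tpi1 (0.24, adjusted p = 0.0362), and 97 of 13902 genes (0.698%). Aldoc did not pass the filter on low counts. The widest values were Slc16a3 at -0.83 ± 0.34 (adjusted p = 0.367), Pdk4 at -0.66 ± 0.42 (adjusted p = 0.558), Pdk3 at -0.60 ± 0.28 (adjusted p = 0.421) and Pfkfb1 at 0.49 ± 0.28 (adjusted p = 0.505). These rest on single libraries. Without the remote library of control mouse 9180 Slc16a3 stood at -0.23 and Pdk3 at -0.27, without that of control mouse 9171 Pdk4 stood at -0.30, and without that of CKD mouse 9177 Pfkfb1 stood at 0.32. Slc2a4 stood at 0.28 ± 0.16 (adjusted p = 0.508) and Gapdh at 0.27 ± 0.10 (adjusted p = 0.327). CKD and control libraries overlapped for all 35 members, where 0.257% of genes were apart. Medians were 0.18 for the muscle-type genes, -0.08 for the other-tissue genes and 0.21 for the remaining members, beside 0.25 for the cardiomyocyte markers and near 0 over all genes.

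Whether the infarct-to-remote difference itself depended on CKD was tested as an interaction. No member was called, and no gene of 14770 was, with 2787 at an unadjusted p below 0.05. DESeq2 called 10 and limma-voom 6 of all genes, with no member among them. The muscle-type genes had interaction values of 0.85 to 1.58 on the log2 scale, with adjusted p from 0.165 to 0.284. A difference between the diets in the regional effect on these genes was thus not shown by this test.

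The balance of isoforms in the bulk RNA was then read within each library as a ratio, in which library size cancels. Each ratio is the log2 of the muscle-type count over the other-tissue count, after 0.5 was added to each. Since transcript lengths differ, its level carries no meaning and the difference between libraries does. All 11 ratios were lower in infarct than in remote tissue in both diets (55 exact two-sided permutation tests adjusted together; adjusted p from 0.00986 to 0.0415 in CKD and from 0.00986 to 0.0223 in control mice). The regions overlapped for all 11 ratios in CKD mice and were apart for 7 of 11 in control mice.

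Eno3/Eno1 showed this over 0.11, 0.48 and 2.92 in CKD infarct and -3.30, -0.42 and 0.25 in control infarct libraries, against 2.63, 2.73 and 3.05 in CKD remote and 0.88, 2.83 and 2.96 in control remote libraries. The means were 1.15 ± 1.12 (SD, n = 7) in CKD infarct and 2.79 ± 0.15 (n = 8) in CKD remote libraries, a difference of -1.64 (exact permutation, adjusted p = 0.00986). In control mice they were -0.94 ± 1.32 (n = 6) in infarct and 2.50 ± 0.80 (n = 6) in remote libraries, a difference of -3.44 (exact permutation, adjusted p = 0.00986). Remote libraries were thus tightly grouped except for control mouse 9180, and infarct libraries were widely spread. Slc16a1/Slc16a3, the balance of MCT1 and MCT4 transcripts, had the widest differences, -2.51 in CKD and -4.17 in control mice (exact permutation, adjusted p = 0.00986 for both). Its values were 0.78, 2.24 and 5.14 in CKD infarct and -1.54, 0.08 and 1.25 in control infarct libraries, against 4.57, 5.01 and 5.67 in CKD remote and 1.72, 4.68 and 5.19 in control remote libraries. The difference of infarct minus remote was -1.93 in CKD and -3.67 in control mice for Pdk2/Pdk3, and -1.69 in CKD and -3.30 in control mice for Slc2a4/Slc2a1. It was -1.40 in CKD and -3.06 in control mice for Pgam2/Pgam1, and -1.31 in CKD and -2.84 in control mice for Pfkfb2/Pfkfb3. The narrowest differences were those of Hk2/Hk1, -0.63 in CKD and -1.19 in control mice. Aldoa/Aldoc is set by the few counts of Aldoc and is imprecise.

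Pairing the regions by mouse bounds what can be said. In CKD mice the exact sign-flip test of the 7 pairs, which permutes regions within mice, gave p = 0.015625 or 0.03125, where 0.015625 is the smallest possible. In control mice each ratio was lower in the infarct in 6 of 6 mice, and the exact test gave p = 0.03125, the smallest that 6 pairs allow. Adjusted in one family with the 33 other tests, 55 in all, these came to 0.0554, so with the mouse as a block no ratio passed there. Adjusted among the 22 paired tests alone, all came to 0.03125. The paired means were close to the unpaired differences, as for Eno3/Eno1 (-1.62 in CKD and -3.44 in control mice) and Slc16a1/Slc16a3 (-2.51 in CKD and -4.17 in control mice).

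**Figure D4:**
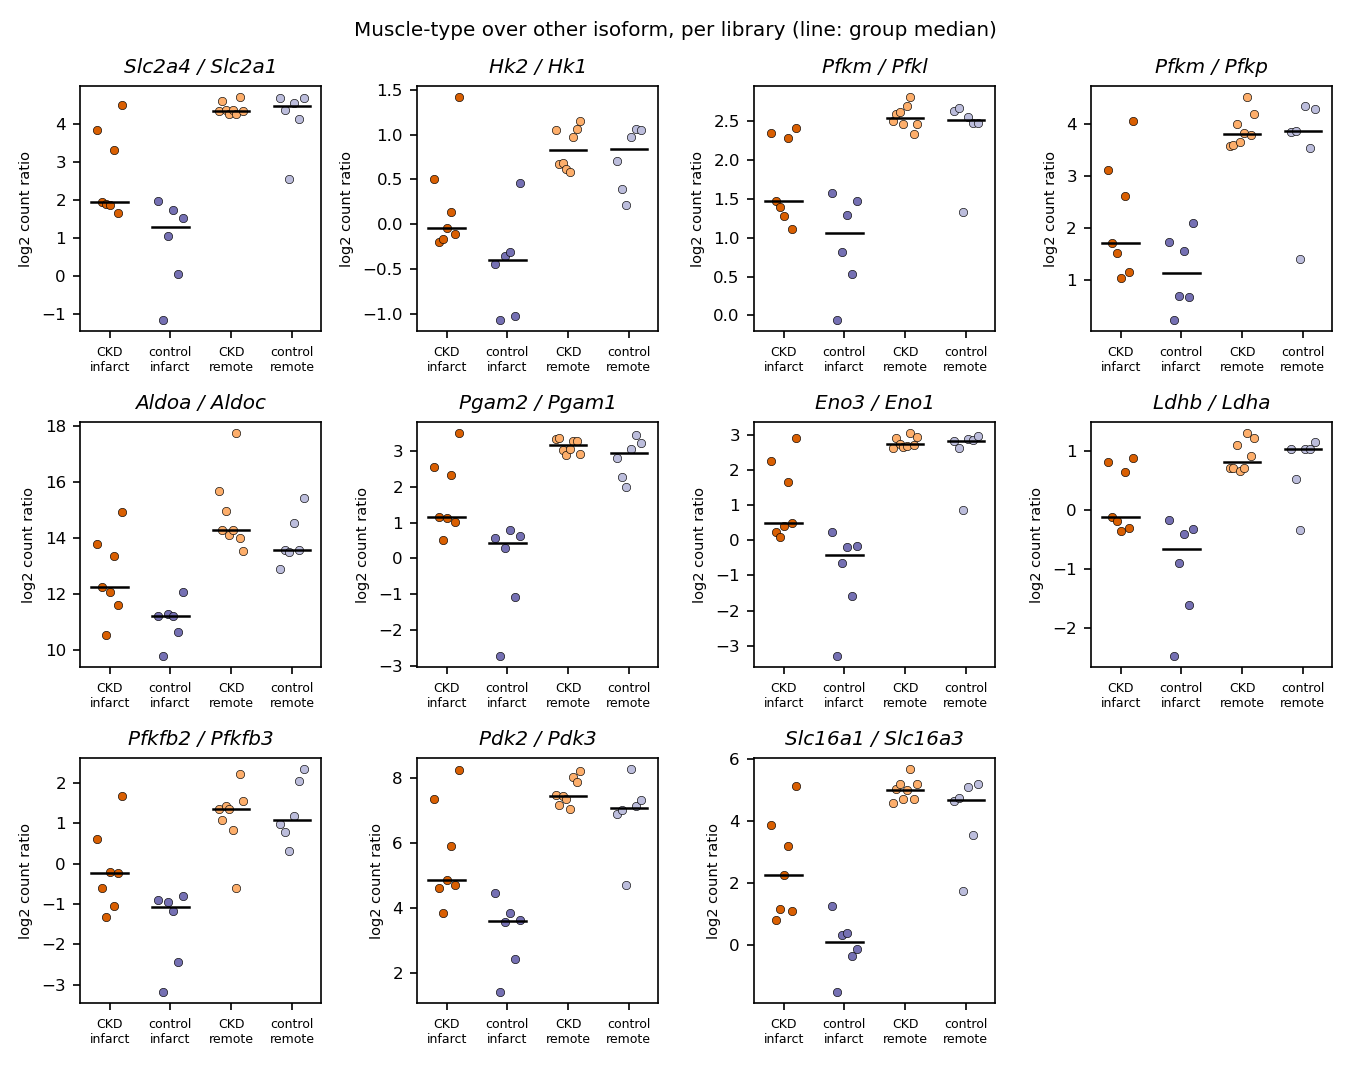
Log2 count ratio of the muscle-type over the other isoform for 11 pairs in each of the 27 libraries, with a line at the group median; vertical axes differ between panels. Medians of infarct groups lie below those of remote groups in every panel, and a single control remote point (mouse 9180) lies apart in Slc2a4/Slc2a1 (2.56), both Pfkm panels and Eno3/Eno1.

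Between diets the ratios differed in the infarct and not detectably in remote myocardium. In infarct tissue 7 of 11 ratios were higher in CKD than in control mice. These were Slc16a1/Slc16a3 (2.51), Pdk2/Pdk3 (2.43), Eno3/Eno1 (2.09), Pgam2/Pgam1 (2.0), Slc2a4/Slc2a1 (1.85), Pfkfb2/Pfkfb3 (1.41) and Ldhb/Ldha (1.18), with adjusted p from 0.00986 to 0.0442 (exact permutation). CKD and control libraries overlapped for every ratio. Hk2/Hk1, Pfkm/Pfkl, Pfkm/Pfkp and Aldoa/Aldoc did not pass (0.68, 0.82, 1.01 and 1.61; adjusted p = 0.0797, 0.0622, 0.125 and 0.0561). When CKD mice 9172 and 9179 were left out of the infarct group, 4 of these ratios remained past the threshold, Eno3/Eno1, Pgam2/Pgam1, Pdk2/Pdk3 and Slc16a1/Slc16a3, at 1.51, 1.48, 1.57 and 1.71. In remote myocardium none was called (adjusted p from 0.152 to 0.802). The dependence of the regional difference on diet was taken over the 13 mice with both regions and passed for Pgam2/Pgam1 alone, at 1.69 (exact permutation, unadjusted p = 0.0268, adjusted p = 0.0491), and did not pass without the same infarct libraries. The adjustment covers all 55 tests. Small p-values of the unpaired region tests in that family lower the adjusted values of the diet and interaction tests. The Pgam2/Pgam1 call thus depends on the choice of family. The call held in 6 of 26 fits that left out 1 library of a mouse, those of CKD mice 9175 and 9178 and control mouse 9180. Leaving out either library removes that mouse from this test, so the 26 fits leave out each of the 13 mice in 2 ways and are not separate checks. In such fits 0 to 7 ratios passed, and the 7 were reached without control mouse 9180.

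At the extremes the ratios ran alongside the cardiomyocyte level. The control infarct library of mouse 9171 had the lowest cardiomyocyte level, 7.85, and the lowest Pgam2/Pgam1, Eno3/Eno1 and Slc16a1/Slc16a3 ratios, -2.73, -3.30 and -1.54. The CKD infarct library of mouse 9179 had a level of 12.73 and ratios of 3.50, 2.92 and 5.14, of which the first lies above the highest remote value, 3.44, and the others within the remote range. Between the extremes Eno3/Eno1 also mostly rose with the level in infarct libraries. It was -1.59 in control mouse 9183, 0.23 in CKD mouse 9174 and 2.25 in CKD mouse 9172. Their levels were 9.36, 11.25 and 12.36. Libraries of near-equal level could still differ. The CKD infarct libraries of mice 9176 and 9177 had levels of 11.77 and 11.79. Their Pgam2/Pgam1 ratios were 1.14 and 2.33, and their Eno3/Eno1 ratios 0.40 and 1.64. No correlation over libraries is given, since 13 mice gave both regions and the libraries are not independent, and the part of the share of muscle cells in the ratios was not tested.

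**Figure D5:**
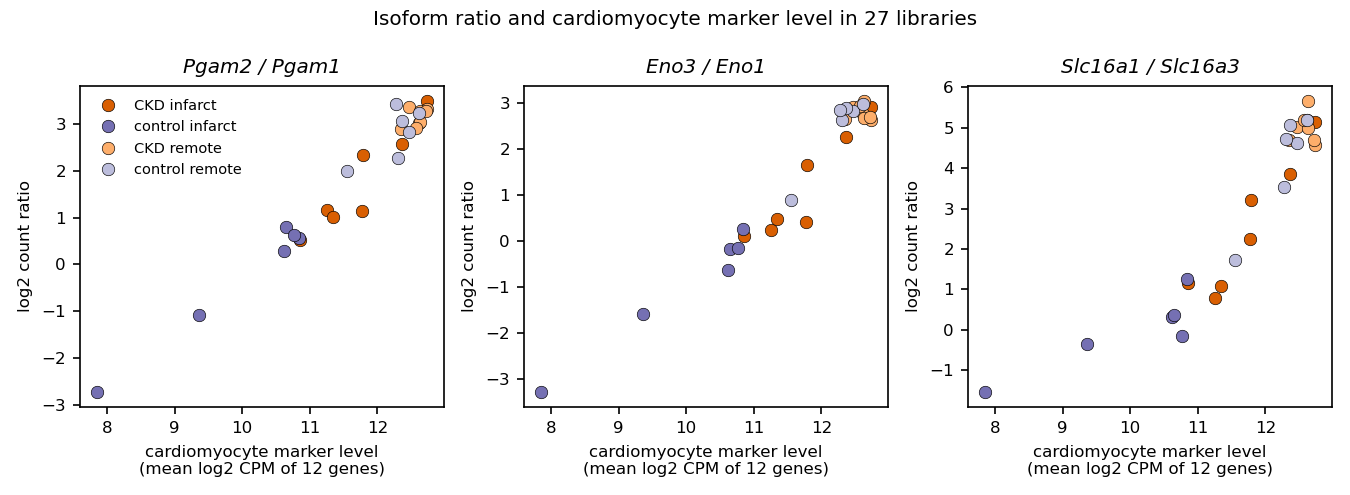
Log2 count ratio of 3 isoform pairs against the mean log2 CPM of 12 cardiomyocyte genes, 1 point for each of the 27 libraries, coloured by group. Remote libraries gather at the upper right, infarct libraries spread along the axis down to mouse 9171 at 7.85, and the CKD infarct library of mouse 9179 lies among the remote points.

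Genes beside the members came from 7 lists of 68 genes, of which 67 could be tested. In CKD infarct tissue 26 were lower and 11 higher than in remote tissue, beside 20.2% lower and 24.7% higher over all genes, and in control infarct tissue 45 were lower and 15 higher, beside 33.2% and 30.7% over all genes. Of 13 glycogen genes 4 fell in CKD and 11 in control mice, and in control mice these included Gys1, muscle glycogen synthase (-1.30 ± 0.22), and Pygb, the brain-type phosphorylase (-1.45 ± 0.24). Pygl, the liver-type phosphorylase, rose by 1.48 ± 0.24 in CKD and 1.92 ± 0.27 in control mice. The pentose phosphate pathway, which makes NADPH and ribose, had 4 of 7 genes higher and 1 lower in CKD mice, and 5 higher and 2 lower in control mice. G6pdx, its first enzyme, rose by 1.07 ± 0.23 in CKD and 1.22 ± 0.26 in control mice, and Pgd by 0.93 ± 0.16 in CKD and 1.04 ± 0.18 in control mice. Rpia, of the same pathway, fell in control mice (-0.60 ± 0.11). Of 11 further isoforms and related genes tested, 2 rose and 2 fell in CKD mice, and 4 rose and 6 fell in control mice. Hk3, a hexokinase of leukocytes, rose by 2.53 ± 0.47 in CKD mice. In control mice all its infarct values, 8.41 to 25.3 CPM, lay above its remote values, 1.82 to 6.83 CPM. Eno2, the neuronal enolase, rose by 0.97 ± 0.20 in CKD and 1.56 ± 0.23 in control mice. Slc2a8 fell in both diets (-0.28 ± 0.08 in CKD and -0.45 ± 0.09 in control mice), and Tigar fell in control mice (-1.47 ± 0.23). Further pyruvate dehydrogenase complex genes fell in 5 of 6 cases in CKD and 6 of 6 in control mice, with Pdhx at -0.71 ± 0.21 in CKD and -1.73 ± 0.24 in control mice. Shuttles of cytosolic NADH into mitochondria fell in 6 of 9 cases in CKD and 8 of 9 in control mice, with Slc25a11 at -0.86 ± 0.25 in CKD and -2.0 ± 0.28 in control mice. Of genes around GLUT4 traffic, 2 of 9 fell and 1 rose in CKD mice, and 4 fell and 2 rose in control mice, not far from the shares over all genes. Among transcription regulators 6 of 12 fell and 2 rose in CKD mice, and 8 fell and 2 rose in control mice. Epas1, a hypoxia-inducible factor of endothelium, fell in both diets (-0.79 ± 0.18 in CKD and -1.24 ± 0.20 in control mice), and Myc rose in CKD mice (1.34 ± 0.29). Each log2 fold change named here had an adjusted p below 0.01 in edgeR's test.

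In infarct tissue 28 of these 67 genes were higher in CKD than in control mice and 3 lower, beside 13.1% higher and 7.14% lower over all genes. NADH shuttle genes led, with 8 of 9 higher (Got1 1.59 ± 0.38, Slc25a11 1.29 ± 0.32), followed by 5 of 6 further pyruvate dehydrogenase complex genes (Pdhx 1.26 ± 0.28) and 8 of 13 glycogen genes with 1 lower. No pentose phosphate gene passed. Of the 11 further isoforms and related genes 1 was higher in CKD mice, Tigar (1.16 ± 0.27), and 2 were lower. Slc2a3, which encodes the transporter GLUT3 of neurons and leukocytes, was lower in CKD mice (-0.55 ± 0.17), as was Adpgk, an ADP-dependent glucokinase (-0.49 ± 0.12). The limits given for the members hold here too, since no gene was called without CKD mice 9172 and 9179. In remote myocardium none of the 67 was called.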

How the data were processed

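RNA from infarct tissue and remote myocardium was sequenced after snap freezing, extraction on RNeasy Micro columns with DNase treatment and NEBNext Ultra II library preparation, per the labels' protocols. The authors deposited 1 table of read counts per gene, and the values are whole numbers that were not normalized. It was made with kallisto 0.48.0 and GRCm39 per the submitters' processing notes, and the annotation release and the way transcripts were summed to genes are not given in the sources used here. Kallisto shares ambiguous reads between transcripts, so near-identical copies can split a gene's counts. All 27 columns matched a library, with 14255456 to 42566498 counts each. Over 79 pairs of libraries within groups the chi-square divided by its degrees of freedom was at least 9.03, so none was a copy of another.

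From these counts edgeR 4.0.16 in R 4.3.3 was run with TMM factors, its low-count filter (minimum count 10) and the quasi-likelihood test, with Benjamini-Hochberg adjustment over all genes and a threshold of 0.05. Effects of CKD were estimated in a separate fit for each region, and infarct with remote tissue and the interaction in a fit of all 4 groups. Groups came from the titles. The title and the treatment label disagree for the remote library of mouse 9179, which was also tried as control. Isoform ratios (log2 of counts plus 0.5) were tested by exact two-sided permutation in Python 3.11.15 with scipy 1.17.1. The alternatives were DESeq2 1.42.0, limma 3.58.1 (voom with sample weights), other size factors and filters, a cardiomyocyte covariate, the mouse as a block, single libraries left out, and a ratio pseudocount of 5. Leaving out the infarct libraries of 9172 and 9179 with the remote library of 9180 in the region fits was chosen after seeing the data. The tests were checked on simulated data.

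Regions share a number because they come from the same mouse. Over 13 mice the deviations of the paired libraries correlated at -0.13 to 0.44 (median 0.205, against -0.0165 between libraries of different mice), and 7 pairs exceeded 0.1. P-values of the diet comparisons within a region, and of the ratio interaction, measure the spread between these mice. Those of the region fit with its interaction, and of the unpaired ratio tests between regions, treat all libraries as independent. The pairing was kept only with the mouse as a block and in the sign-flip tests. All 35 members are named. Values by group are given for members and for both genes of each isoform pair, and of other lists up to 3 called genes with the smallest p. The members and lists were chosen with earlier results of these data known. Promoter windows come from RefSeq on GRCm38.p6, a build other than that of the counts.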

Additional observations from a re-analysis of the deposited data

Results flagged for a closer look

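In 184 tests of groups of 6 to 8 libraries 18 values stood apart from the rest of their group by Dixon's test, which flags about 5% by chance. Of these, 11 came from the remote library of control mouse 9180. Its Slc2a4 was 179 CPM, against 396 CPM in the next library, its Eno3 754 CPM against 1682 CPM, and its Pdhb 387 CPM against 693 CPM. Its Pfkp was 167.0 CPM against 96.8 CPM, its Eno1 411 CPM against 271 CPM, its Pfkfb4 11.5 CPM against 7.14 CPM and its Slc16a3 30.3 CPM against 12.2 CPM. Its log2 ratios were 2.56 for Slc2a4/Slc2a1 (next library 4.13), 1.32 for Pfkm/Pfkl (2.47), 1.40 for Pfkm/Pfkp (3.53) and 0.88 for Eno3/Eno1 (2.63). The same library had 3864 CPM of Col1a1 and the lowest cardiomyocyte level of the remote libraries, and the part of these values was not tested.

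In CKD infarct tissue mouse 9179 had 42.5 CPM of Pfkfb2 (next library 20.9 CPM) and 15.0 CPM of Pfkfb1 (next 4.70 CPM), and mouse 9176 had 429 CPM of Hk1 (next 263 CPM) and 708 CPM of Pgk1 (next 506 CPM). The control infarct library of mouse 9184 had 98.1 CPM of Slc16a3 (next 55.2 CPM). In CKD remote tissue mouse 9177 had 26.9 CPM of Pfkfb3 (next 15.9 CPM) and 17.2 CPM of Pfkfb1 (next 11.3 CPM).

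The Pgam2/Pgam1 ratio differed between diets in its infarct-minus-remote difference, which was -1.37 in CKD and -3.06 in control mice over mice with both regions. The difference of differences was 1.69 (exact permutation over mice, unadjusted p = 0.0268, adjusted p = 0.0491 in one family with the unpaired region tests). It did not pass with CKD mice 9172 and 9179 left out (1.18, adjusted p = 0.183) and held in 6 of 26 fits that left out 1 library. Either library of a mouse removes the same mouse here, so these fits are not separate checks.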

How the results depend on the processing

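Counts of called members in infarct over remote tissue held their side under nearly all settings. In CKD mice 19 were called (45.0% of all genes), 30 with limma-voom (60.2%), 22 (8 higher, 14 lower) with the mouse as a replicate block (48.8%), and 13 to 27 with 1 library left out, the lowest without 9175 and the highest without 9179. In control mice 34 were called (63.9% of all genes), also with the block (66.1%), and 31 to 34 with 1 library left out. For fits that left out 1 library, here and below, the share of all genes called is not given. Their member counts are therefore not set against it. The block gave 0 members in the interaction. The 21 members called higher in CKD infarct tissue became 12 with limma-voom (20.3% of all genes in the first and 16.5% in the second), 0 with the cardiomyocyte level as a covariate, 0 without CKD mice 9172 and 9179, and 0 to 27 with 1 library left out. With the covariate, and likewise without those mice, 0 of all genes tested were called. With that covariate, whose values did not overlap between the diets in infarct tissue, Slc2a4 stood at -0.0333 (adjusted p = 0.997), which decides nothing about diet. In remote myocardium DESeq2 called 1 member and edgeR 0, and 0 remained with the remote library of 9179 counted as control. Of the isoform ratios, 0 passed with the mouse as a block in CKD and 0 in control mice when adjusted with the other tests, and all 22 when adjusted among themselves. Between diets in infarct tissue 4 passed without CKD mice 9172 and 9179 (7 in all libraries), and the interaction gave 0 without them and 0 to 7 with 1 library left out. In remote tissue 0 or 1 ratio passed with 1 library left out (Pdk2/Pdk3 without control mouse 9182). The causes of these changes were not tested. Depth limits Aldoc.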
